A study of Mus musculus with 11 samples.

Results

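The genes described here make cholesterol, sense it and move it, and they were followed through livers of 3 genotypes on microarrays. They are 27 genes named in a list: 18 enzymes of the synthesis pathway, 4 regulators that sense sterols and 5 genes of transport and storage. A probe belonged to the module when it was not a control and its accession mapped to one of these symbols in RefSeq's mouse genes. All 27 genes were found, on 36 of the 55681 probes of the array, and all 27 were tested among 22281 items, 13962 of which had a gene symbol. Every member was well above background on all 11 arrays, so none was lost to the filter on dim probes.

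The livers came from 4 β-catΔEx3:Myc, 3 β-catΔEx3 and 4 WT male mice, each hybridised to its own 1-colour Agilent array with Cy3-labelled total RNA. β-catΔEx3 names a β-catenin without the stretch encoded by exon 3, a form that is not tagged for breakdown and so stays active, and the β-catΔEx3:Myc label adds Myc, a transcription factor of cell growth. All mice were a hybrid, mostly B6SJL with a minor part of 129S6, were untreated, and were 22 to 40 days old; single ages are given for β-catΔEx3:Myc replicate 4 (29 days), β-catΔEx3 replicate 3 (30 days) and WT replicate 4 (31 days). The series' design text speaks of tumour-bearing livers for all samples and counts a group only as c-Myc expressing. In the sample labels, Myc is named for β-catΔEx3:Myc alone. The promoter that drives the alleles, the feeding state, the hour of collection, and whether tumour or surrounding tissue was taken are not given in the sources used here, and nothing says more of the replicates than that each has its own mouse number.

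Cells make cholesterol from acetyl-CoA by way of mevalonate, isoprenoids, squalene and lanosterol. When membranes are short of sterol, the escort protein Scap carries the membrane-bound factor Srebf2 to the Golgi, where it is cut free to switch on the genes of the pathway; when sterol is plentiful, the Insig proteins hold Scap back in the endoplasmic reticulum. The liver makes much of the body's cholesterol. Abca1 moves part of it out to lipoproteins, and the paired half-transporters Abcg5 and Abcg8 move part of it into bile.

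The 75th percentile of processed signal lay between 227 and 354 over the arrays, 47.8% to 52.4% of probes stood well above background, and 0 spots were saturated. Levels below are log2 processed signal minus the array's 75th percentile of it, and they compare arrays for 1 gene, not genes with each other. The arrays came from 4 slides: WT replicates 1 to 3 lay on slide 1, β-catΔEx3 replicates 1 and 2 with β-catΔEx3:Myc replicates 1 and 2 on slide 2, β-catΔEx3:Myc replicate 3 on slide 3, and the last replicate of each genotype on slide 4. Myc had levels of 2.31 to 4.74 in β-catΔEx3:Myc, 1.14 to 2.21 in β-catΔEx3 and −0.76 to 2.05 in WT livers, so the β-catΔEx3:Myc arrays were the highest, though nothing used here says whether its probe reads the added Myc. Lgr5, a target of β-catenin, had 2.72 to 2.92 in β-catΔEx3:Myc, 2.61 to 2.96 in β-catΔEx3 and 0.24 to 1.01 in WT livers. All 8 hepatocyte markers examined were well above background on all 11 arrays. Their summed linear level, in multiples of the array's 75th percentile, was 3713 to 5430 in β-catΔEx3:Myc, 4252 to 5074 in β-catΔEx3 and 6685 to 8607 in WT livers. In whole tissue, fewer cells of a type and less RNA per cell cannot be told apart.

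As a mean, the synthesis enzymes stood apart on each β-catΔEx3 array and not on those of the other genotypes. Their mean level, as a log2 difference from the WT mean, was 0.28, 0.22, −0.02 and 0.26 on the 4 β-catΔEx3:Myc arrays, −1.53, 1.65 and 1.31 on β-catΔEx3 replicates 1, 2 and 3, and 0.10, 0.14, −0.05 and −0.19 on the WT arrays. Under quantile normalization the β-catΔEx3:Myc values were 0.08, −0.09, −0.30 and 0.10, so that their sign depends on the scaling. One β-catΔEx3 liver was thus below every other array and the other 2 were above every other array. β-catΔEx3 replicate 1 had 16 of the 18 enzymes below all 4 WT arrays and 1 above them, while 30.9% and 42.2% of all items lay there. Replicate 2 had 16 above and 0 below, against 39.8% and 31.7% of items, and replicate 3 had 14 above and 2 below, against 38.3% and 32.9%. The 4 β-catΔEx3:Myc arrays had 11, 9, 8 and 11 enzymes above WT, with 42.1%, 43.5%, 44.4% and 37.6% of items, and 4, 5, 5 and 4 below, with 30.2%, 29.1%, 29.9% and 32.5%. The SD over a group's arrays, as a median over the enzymes, was 0.21 in β-catΔEx3:Myc, 1.92 in β-catΔEx3 and 0.26 in WT livers, and over all items it was 0.31, 0.32 and 0.24.

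**Figure D1:**
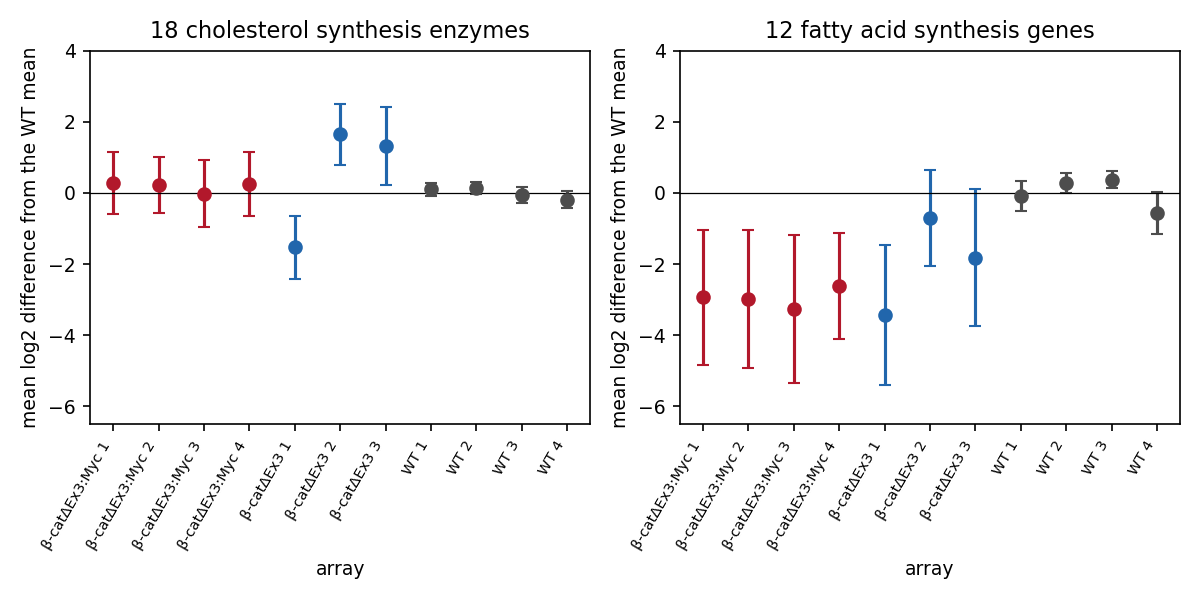
Mean log2 difference from the WT mean on each array for the 18 cholesterol synthesis enzymes (left) and 12 fatty acid synthesis genes (right). Bars are the SD over genes. β-catΔEx3 replicate 1 sits at −1.53 and replicates 2 and 3 at 1.65 and 1.31, while the other arrays lie between −0.19 and 0.28 for the enzymes.

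The gap inside the β-catΔEx3 group ran through nearly the whole pathway. Set against the mean of replicates 2 and 3, replicate 1 was lower for all 18 enzymes, by a median of −3.33 on the log2 scale, and at least 4-fold lower for 15 of them. Of all 27 members, 17 were at least 4-fold lower and 1 was at least 4-fold higher, where 1.19% and 0.776% of all items were. This is a description of 3 arrays with no test, since replicate 1 is a single liver. Replicates 2 and 3, from different slides, differed from each other by at most 1.22 on the log2 scale for any enzyme, for Tm7sf2. Within slide 2, replicate 1 was lower than replicate 2 for all 18 enzymes, and below the mean of the β-catΔEx3:Myc arrays of that slide for all 18, while replicate 2 was above that mean for all 18. On that slide 8.23% of all items were at least 2-fold lower in replicate 1 than in replicate 2, against 17 of the 18 enzymes.

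Hmgcs1, the cytosolic synthase that makes HMG-CoA, had levels of 8.32, 8.19, 7.90 and 8.26 in β-catΔEx3:Myc, 5.60, 9.65 and 9.49 in β-catΔEx3 and 7.07, 6.97, 7.36 and 7.23 in WT livers. The first β-catΔEx3 array was the lowest of all 11, the other 2 were the highest, and the β-catΔEx3:Myc arrays all lay above the WT arrays without overlap. Idi1, the isomerase that makes the reactive isoprene unit, had 6.37, 6.28, 5.86 and 6.57 in β-catΔEx3:Myc, 3.39, 8.04 and 8.01 in β-catΔEx3 and 6.27, 6.23, 5.81 and 6.02 in WT livers. It had the widest gap of the module: replicate 1 was 24.9-fold below the mean of replicates 2 and 3, and the β-catΔEx3:Myc and WT arrays overlapped. Cyp51, the demethylase that acts on lanosterol, had 2.38, 2.20, 2.29 and 2.38 in β-catΔEx3:Myc, −0.25, 4.11 and 3.78 in β-catΔEx3 and 2.29, 2.04, 1.56 and 1.74 in WT livers. Its gap was 18.3-fold, and that of Mvd, the decarboxylase that ends the mevalonate steps, was 20.5-fold.

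Insig1 and Insig2, the paired sterol-dependent brakes on Scap, went in opposite directions between β-catΔEx3 replicate 1 and replicates 2 and 3. Among the β-catΔEx3:Myc arrays both were lower on replicate 1 than on replicate 2. Insig1 had levels of 2.18, 2.75, 1.87 and 3.16 in β-catΔEx3:Myc, 0.35, 3.74 and 4.03 in β-catΔEx3 and 2.21, 2.12, 2.69 and 2.46 in WT livers. It followed the enzymes, lowest on β-catΔEx3 replicate 1 and highest on replicates 2 and 3. Insig2 had 4.76, 6.23, 6.02 and 5.82 in β-catΔEx3:Myc, 6.93, 4.02 and 4.52 in β-catΔEx3 and 5.69, 5.13, 4.74 and 4.47 in WT livers. It was highest on the array where the enzymes were lowest, and replicate 1 was 6.33-fold above the mean of replicates 2 and 3, the only member at least 4-fold higher there. A second Insig2 probe gave the same direction, with a log2 difference of 3.02 against 2.66 for the probe used.

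**Figure D2:**
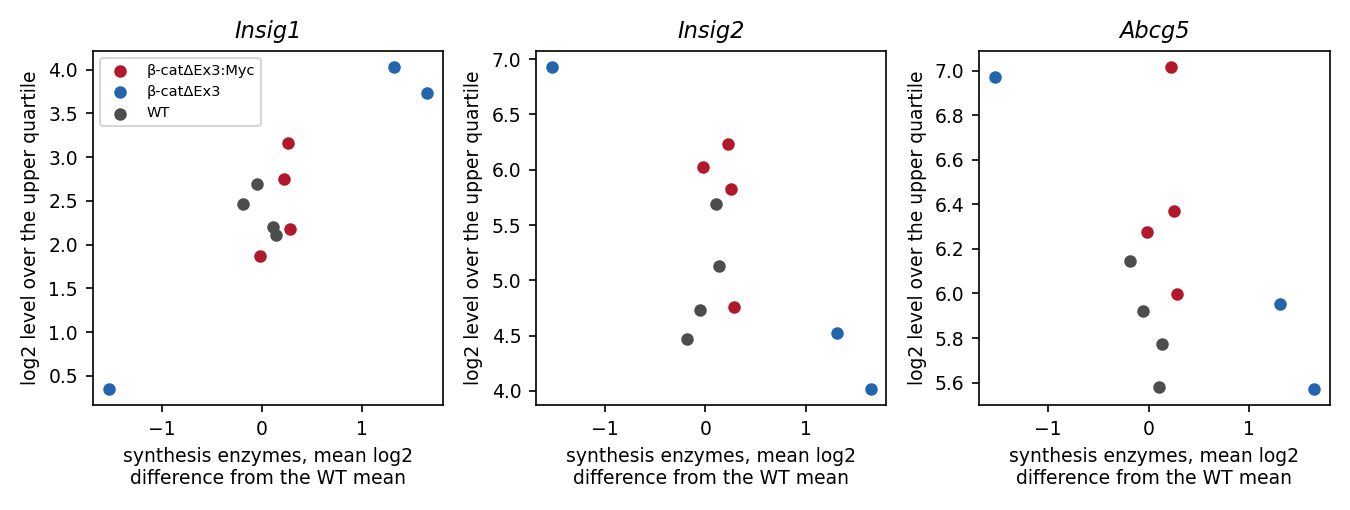
Level of Insig1, Insig2 and Abcg5 (log2, vertical, 1 panel each) on each array against the mean level of the synthesis enzymes as a difference from the WT mean (log2, horizontal). β-catΔEx3 replicate 1, far left at −1.53, has the lowest Insig1 (0.35) and the highest Insig2 (6.93) of the 11 arrays.

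Upstream sequence is shown for the 3 enzymes whose values are given above and for both Insig genes, because these genes moved together or in opposition. RefSeq's promoter table (GRCm38.p6) matched 22 of the 27 members, with 29 promoters; Fdft1, Fdps, Soat2, Sqle and Stard4 were not matched. Each line is the 250 bases before a transcription start, 5′ to 3′ on the gene's strand. Capitals mark CCAAT, the box bound by NF-Y, which assists Srebf2 at sterol genes, TCACNCCAC, a letter pattern of the sterol response element, and the E-box CACGTG, each on either strand (CCAAT then reads ATTGG). The positions are chr13:119690101-119690350 (plus strand) for Hmgcs1, chr13:8885356-8885605 (plus) for Idi1, chr5:4104698-4104947 (minus) for Cyp51, chr5:28071162-28071411 (plus) for Insig1 and chr1:121332590-121332839 (minus) for the first of 3 starts listed for Insig2.
Hmgcs1: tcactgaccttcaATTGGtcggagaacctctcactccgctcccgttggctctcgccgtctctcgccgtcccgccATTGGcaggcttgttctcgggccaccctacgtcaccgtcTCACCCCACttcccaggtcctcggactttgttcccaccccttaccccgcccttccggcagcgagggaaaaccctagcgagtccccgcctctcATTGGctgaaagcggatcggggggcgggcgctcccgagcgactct
Idi1: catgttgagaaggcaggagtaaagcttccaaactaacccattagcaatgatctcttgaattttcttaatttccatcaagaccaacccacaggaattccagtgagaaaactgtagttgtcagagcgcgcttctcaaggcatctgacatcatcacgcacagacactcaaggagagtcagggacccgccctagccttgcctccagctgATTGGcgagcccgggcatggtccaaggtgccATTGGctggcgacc
Cyp51: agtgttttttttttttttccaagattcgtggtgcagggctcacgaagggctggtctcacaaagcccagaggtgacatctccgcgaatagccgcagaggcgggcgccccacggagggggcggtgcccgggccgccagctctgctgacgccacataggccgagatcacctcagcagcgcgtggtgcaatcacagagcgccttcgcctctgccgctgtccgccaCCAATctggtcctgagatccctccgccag
Insig1: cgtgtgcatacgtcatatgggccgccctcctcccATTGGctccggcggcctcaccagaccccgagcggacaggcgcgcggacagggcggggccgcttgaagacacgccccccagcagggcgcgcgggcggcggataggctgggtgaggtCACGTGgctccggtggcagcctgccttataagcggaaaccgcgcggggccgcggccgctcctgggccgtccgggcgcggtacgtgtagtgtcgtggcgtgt
Insig2: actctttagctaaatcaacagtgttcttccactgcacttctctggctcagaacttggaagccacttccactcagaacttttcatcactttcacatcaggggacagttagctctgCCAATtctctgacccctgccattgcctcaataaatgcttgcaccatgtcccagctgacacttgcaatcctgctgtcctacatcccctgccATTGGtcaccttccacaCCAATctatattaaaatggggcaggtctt

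CCAAT was found before 18 of the 22 matched members and 14 of the 15 matched enzymes, and before 37.5% of 27025 genes in windows of the same length. It was present for 13 of the 13 matched members that were at least 4-fold lower on β-catΔEx3 replicate 1, and for 5 of the other 9. The Insig2 window printed holds 3 copies, the windows of its other starts hold none, and Insig2 went the opposite way to the enzymes. TCACNCCAC was found for Hmgcs1 alone, and for 1.22% of all genes. CACGTG was found for 6 of the 22 members, Hsd17b7, Sc5d, Dhcr7, Scap, Insig1 and Abca1, and for 6.86% of genes. ATCAAAG, a letter pattern of the Tcf factors that partner β-catenin, was found for 0 of 22 and for 3.72% of genes. No motif overlapped another in these windows. A match is a run of letters and not a shown site, and no match says only that the letters are not in the window.

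In the early steps, from acetyl-CoA to the isoprenoids, most enzymes followed the same pattern and Acat2 did not. Acat2, the cytosolic thiolase that joins 2 acetyl-CoA, had levels of 6.69, 6.31, 6.62 and 6.39 in β-catΔEx3:Myc, 6.15, 6.64 and 5.88 in β-catΔEx3 and 6.14, 5.67, 5.48 and 5.88 in WT livers. All 4 β-catΔEx3:Myc arrays were above all WT arrays, and β-catΔEx3 replicate 1 was not low. Mvd had 3.51, 3.61, 2.77 and 3.50 in β-catΔEx3:Myc, 0.59, 5.21 and 4.68 in β-catΔEx3 and 2.69, 3.01, 3.11 and 2.08 in WT livers. The kinases Mvk and Pmvk and Fdps, which makes farnesyl diphosphate, were 5.66-fold, 6.15-fold and 9.73-fold lower on β-catΔEx3 replicate 1 than on the mean of the other 2. All 4 of these enzymes were lowest on that array among the 11 and highest on replicates 2 and 3.

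The enzymes that make and fold squalene followed the pattern too. Fdft1, squalene synthase, had 5.09, 4.89, 4.90 and 4.76 in β-catΔEx3:Myc, 2.84, 6.39 and 6.17 in β-catΔEx3 and 4.01, 4.13, 3.69 and 3.66 in WT livers. Lss, which folds squalene epoxide into lanosterol, had 2.26, 2.37, 1.81 and 2.50 in β-catΔEx3:Myc, 0.44, 3.76 and 4.14 in β-catΔEx3 and 1.38, 1.78, 1.40 and 0.97 in WT livers. For both genes the β-catΔEx3:Myc arrays lay above the WT arrays without overlap, and between the β-catΔEx3 extremes. Sqle, the epoxidase between them, had 5.62, 5.35, 4.96 and 5.73 in β-catΔEx3:Myc, 3.15, 6.70 and 7.07 in β-catΔEx3 and 5.42, 5.64, 5.43 and 5.07 in WT livers, so that here the β-catΔEx3:Myc and WT arrays overlapped.

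**Figure D3:**
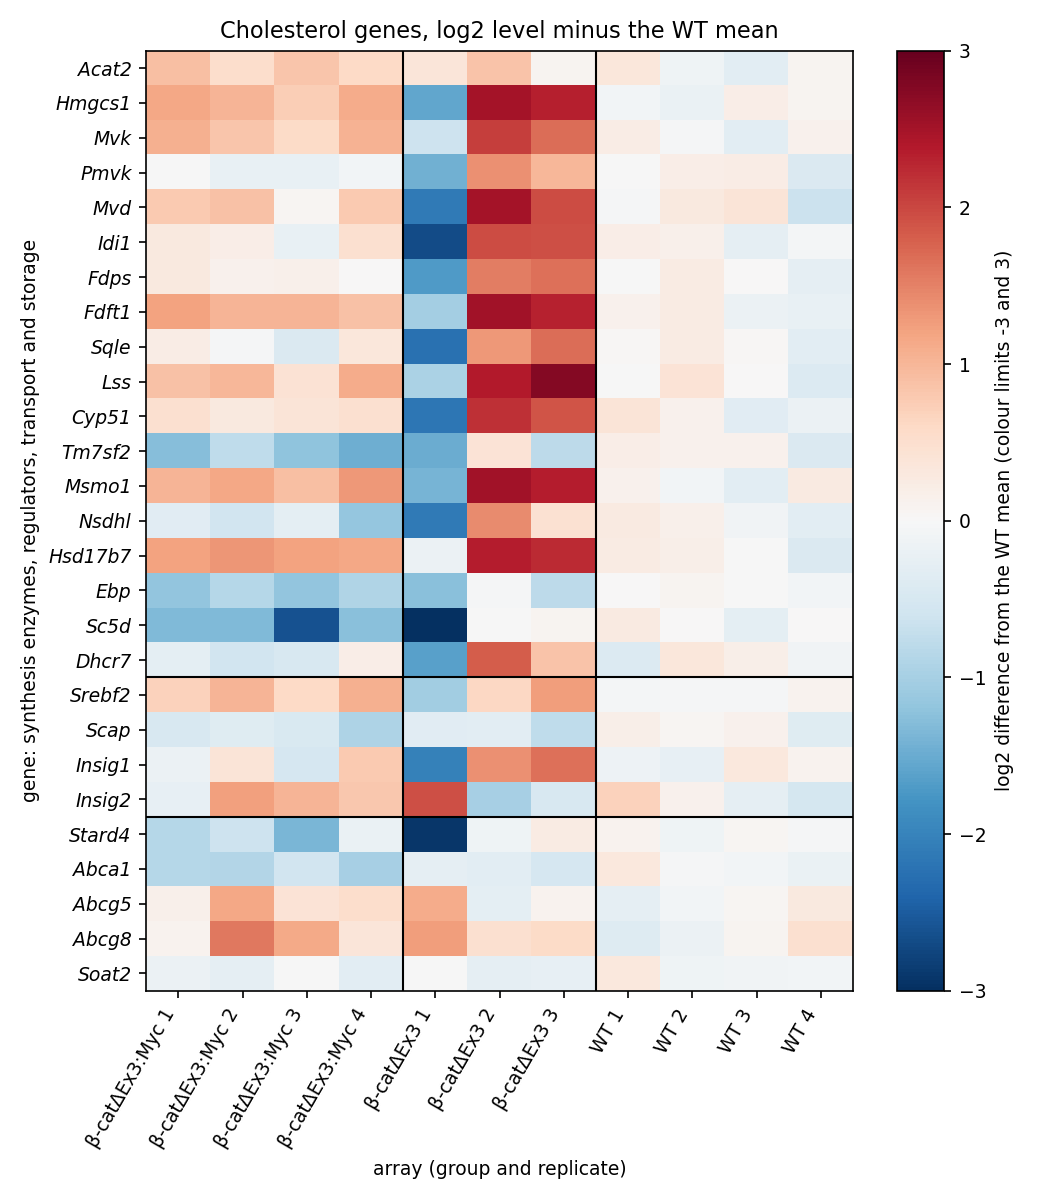
Level of each of the 27 members (rows) on each of the 11 arrays (columns, β-catΔEx3:Myc left, WT right), as log2 difference from the member's WT mean, with colours that stop at −3 and 3. Most enzyme rows are low on β-catΔEx3 replicate 1 and high on replicates 2 and 3, and Insig2, Abcg5 and Abcg8 are high on replicate 1.

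The steps from lanosterol to cholesterol split. Msmo1, Nsdhl and Hsd17b7, which together remove methyl groups from the sterol ring, were 14.3-fold, 8.31-fold and 5.56-fold lower on β-catΔEx3 replicate 1 than on the other 2, and Dhcr7, the last reductase, 7.76-fold. Hsd17b7 had levels of 3.56, 3.67, 3.55 and 3.52 in β-catΔEx3:Myc, 2.18, 4.71 and 4.59 in β-catΔEx3 and 2.59, 2.53, 2.35 and 1.93 in WT livers. On replicate 1 it lay inside the WT range, unlike its neighbours in the pathway. Ebp, the isomerase that shifts a ring double bond, had 7.08, 7.42, 7.10 and 7.36 in β-catΔEx3:Myc, 7.02, 8.23 and 7.49 in β-catΔEx3 and 8.29, 8.34, 8.27 and 8.19 in WT livers. Tm7sf2, a sterol ring reductase, had 5.82, 6.33, 5.90 and 5.63 in β-catΔEx3:Myc, 5.61, 7.52 and 6.30 in β-catΔEx3 and 7.29, 7.23, 7.22 and 6.65 in WT livers. Both genes were below all WT arrays on every β-catΔEx3:Myc array, and β-catΔEx3 replicate 2 was the highest of its group. Sc5d, the desaturase before Dhcr7, had 5.58, 5.59, 4.31 and 5.66 in β-catΔEx3:Myc, 3.57, 6.90 and 6.996 in β-catΔEx3 and 7.18, 6.94, 6.62 and 6.93 in WT livers. Its β-catΔEx3 replicates 2 and 3 lay within the WT range, and its β-catΔEx3:Myc arrays were all below it.

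Among the regulators, Srebf2 had levels of 0.26, 0.58, 0.16 and 0.63 in β-catΔEx3:Myc, −1.49, 0.17 and 0.81 in β-catΔEx3 and −0.50, −0.47, −0.47 and −0.33 in WT livers. On this probe every mutant array but β-catΔEx3 replicate 1 was above WT. The second Srebf2 probe disagreed: it correlated with the first by r = 0.12 over 11 arrays and was 0.31 higher, not lower, on β-catΔEx3 replicate 1 than on the mean of the other 2. Scap had 6.21, 6.33, 6.24 and 5.77 in β-catΔEx3:Myc, 6.35, 6.39 and 5.93 in β-catΔEx3 and 6.86, 6.76, 6.82 and 6.34 in WT livers. Its β-catΔEx3 replicate 1 was not set apart from the other 2, and its β-catΔEx3:Myc arrays were all below the lowest WT array, replicate 2 narrowly. In each genotype the array on slide 4 had the lowest Scap, at 5.77 in β-catΔEx3:Myc, 5.93 in β-catΔEx3 and 6.34 in WT. The second probes of Mvk, Pmvk, Fdft1, Tm7sf2, Nsdhl, Hsd17b7, Insig2 and Stard4 correlated with the probe used by 0.91 to 0.99.

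The transport genes did not move as a group. Stard4, a carrier of free sterol in the cytosol, followed the enzymes on β-catΔEx3 replicate 1: it had 2.92, 3.17, 2.41 and 3.58 in β-catΔEx3:Myc, 0.87, 3.66 and 4.04 in β-catΔEx3 and 3.88, 3.66, 3.84 and 3.75 in WT livers. Abca1, the efflux pump of the plasma membrane, had 3.00, 2.96, 3.27 and 2.85 in β-catΔEx3:Myc, 3.58, 3.53 and 3.34 in β-catΔEx3 and 4.16, 3.80, 3.77 and 3.65 in WT livers. The 3 genotypes did not overlap for Abca1, with β-catΔEx3:Myc lowest and WT highest. Abcg5 had 5.999, 7.02, 6.28 and 6.37 in β-catΔEx3:Myc, 6.97, 5.57 and 5.95 in β-catΔEx3 and 5.58, 5.77, 5.92 and 6.15 in WT livers, and it was 2.32-fold higher on β-catΔEx3 replicate 1 than on the other 2. Its partner Abcg8 had 0.09, 1.56, 1.12 and 0.33 in β-catΔEx3:Myc, 1.22, 0.45 and 0.55 in β-catΔEx3 and −0.42, −0.19, 0.05 and 0.47 in WT livers. Both half-transporters were highest on β-catΔEx3:Myc replicate 2 and next on β-catΔEx3 replicate 1. Soat2, which esterifies cholesterol for storage, lay between 4.33 and 4.63 on the β-catΔEx3:Myc arrays, 4.37 and 4.62 on the β-catΔEx3 arrays and 4.51 and 4.96 on the WT arrays, and the groups overlapped.

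The likeness of each member to the pathway was measured as Pearson's r with the mean of the other enzymes over the 11 arrays, as a description, since the arrays share genotypes and slides. It was highest for Cyp51 (0.99), Idi1 (0.98) and Fdps (0.98) and lowest among enzymes for Acat2 (0.18), Ebp (0.26) and Tm7sf2 (0.38). Without the 2 arrays farthest from the median, β-catΔEx3 replicates 1 and 2, Idi1 kept 0.97 and Fdps 0.96, while Ebp turned to −0.39 and Tm7sf2 to −0.32. Insig1 had 0.92 on all arrays and 0.80 without those 2, and Insig2 had −0.72 and −0.24, so the opposition of Insig2 rests largely on these arrays. Among the 10 other genes of the array most like the mean of the enzymes were Acsl3, which activates fatty acids (0.92), Rdh11, a retinal reductase (0.91), Lbr, a lamin receptor that is also a sterol reductase (0.91), Erg28, a scaffold of sterol enzymes (0.89), and Pstpip2 (0.92), Matk (0.90) and Nfe2 (0.89). Without the 2 arrays these values were 0.82, 0.81, 0.82, 0.58, 0.77, 0.76 and 0.90, in that order.

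β-catΔEx3:Myc livers differed from WT livers for 5 members: Acat2 was higher, and Tm7sf2, Ebp, Scap and Abca1 were lower. In this comparison 25.3% of all items were called higher and 17.1% lower by limma at an adjusted p under 0.05 (42.4% in all), so 1 and 4 of 27 are not more than the array as a whole. Of all calls 59.7% were higher, and 48.3% with the percentile taken over probes detected on all arrays. Acat2 averaged 6.51 ± 0.18 in β-catΔEx3:Myc and 5.79 ± 0.28 in WT livers (SD, n = 4 each), a log2 difference of 0.71 ± 0.20 (SE; limma adjusted p = 0.0157). Ebp averaged 7.24 ± 0.18 in β-catΔEx3:Myc and 8.27 ± 0.06 in WT livers, a log2 difference of −1.03 ± 0.23 (limma adjusted p = 0.00448). The Acat2 call was lost under quantile normalization and in the authors' deposited matrix, at log2 differences of 0.46 and 0.47. Tm7sf2 differed by −1.18 ± 0.35 (limma adjusted p = 0.0208), Scap by −0.56 ± 0.18 (0.0321) and Abca1 by −0.83 ± 0.15 (0.00186). The Tm7sf2 call ended without WT replicate 1 or 2 (limma adjusted p = 0.0521 and 0.0522), and the Scap call ended without WT replicate 1, 2 or 3, without β-catΔEx3:Myc replicate 1 or 4, and with no filter on dim probes (0.0527 to 0.0824). With slide as a block no member was called, against 4.29% of items higher and 4.45% lower (8.74% in all), and the 5 genes had limma adjusted p of 0.0761 for Abca1, 0.126 for Scap, 0.257 for Ebp, 0.404 for Tm7sf2 and 0.549 for Acat2. Within slide 4, the 1 pair of these genotypes on a common slide, β-catΔEx3:Myc replicate 4 minus WT replicate 4 was 0.51 for Acat2, −0.82 for Ebp, −1.02 for Tm7sf2, −0.56 for Scap and −0.80 for Abca1, the same signs.

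The 1 far array of the β-catΔEx3 group also set this count, because all 3 genotypes share one estimate of each gene's spread. The residual SD was 0.98 as a median over the enzymes and 0.33 over all items. Without β-catΔEx3 replicate 1, the β-catΔEx3:Myc and WT means are the same and 14 members passed the test. Acat2, Hmgcs1, Mvk, Fdft1, Lss, Msmo1, Hsd17b7 and Srebf2 were higher (25.1% of items), and Tm7sf2, Ebp, Sc5d, Scap, Stard4 and Abca1 lower (17.1%). The fit of these 2 groups alone called the same 14 (26% and 17.8% of items). These are also the 14 members whose β-catΔEx3:Myc and WT arrays did not overlap, 8 above and 6 below, where 24.9% and 17.5% of items were. The log2 difference was 1.01 ± 0.15 for Hmgcs1 (SE; limma adjusted p = 0.000775), 1.03 ± 0.16 for Fdft1 (0.000825), 1.23 ± 0.16 for Hsd17b7 (0.000456) and −1.63 ± 0.29 for Sc5d (0.00213) in the fit without that array. With slide as a block as well, Mvd, Lss and Hsd17b7 were called higher and Sc5d lower, against 4.16% and 4.41% of items.

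β-catΔEx3 livers differed from WT livers for only 2 members when all 11 arrays entered the limma fit, with Hsd17b7 higher and Ebp lower, where 21.6% of items were called higher and 15.5% lower (37.1% in all). Of all calls here 58.1% were higher, and 42.3% with the percentile taken over probes detected on all arrays. Hsd17b7 averaged 3.83 ± 1.43 in β-catΔEx3 (SD, n = 3) and 2.35 ± 0.30 in WT livers (n = 4), a log2 difference of 1.48 ± 0.51 (SE; limma adjusted p = 0.0411). Ebp averaged 7.58 ± 0.61 in β-catΔEx3 and 8.27 ± 0.06 in WT livers, a log2 difference of −0.69 ± 0.24 (limma adjusted p = 0.0472). Neither gene's groups were free of overlap, and Abca1 was the 1 member whose groups were, below WT, where 18.8% of items lay below and 24.8% above. Leaving out any 1 of the WT or β-catΔEx3:Myc arrays, or β-catΔEx3 replicate 3, ended both calls (without WT replicate 4, Scap was called lower), and without β-catΔEx3 replicate 2 Ebp and Tm7sf2 were called lower. The Hsd17b7 call was also lost under quantile normalization, in the authors' deposited matrix and with the percentile taken over probes detected on all arrays, with log2 differences of 1.30 to 1.36. Under each of these 3 settings 3 members were called lower, Ebp, Scap and Abca1, and normexp background correction added Scap to the 2 calls. Scap differed by −0.47 with all arrays (limma adjusted p = 0.0861) and by −0.66 to −0.74 under the 3 settings, and Abca1 by −0.36 (0.112) and by −0.52 to −0.56. The fit of these 2 groups alone, and the fit with slide as a block, called 0 members. The first called 20.1% of items higher and 15.3% lower, and the second 4.16% and 3.98% (8.13% in all).

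Without β-catΔEx3 replicate 1, which leaves 2 livers in the group, 15 members were higher in β-catΔEx3 than in WT livers and 0 lower, against 15.1% and 12% of items. They were 13 enzymes (Hmgcs1, Mvk, Pmvk, Mvd, Idi1, Fdps, Fdft1, Sqle, Lss, Cyp51, Msmo1, Hsd17b7 and Dhcr7) with Srebf2 and Insig1. The fold change was 5.91 for Lss (limma adjusted p = 0.000338), 5.41 for Msmo1 (0.000106), 5.33 for Hmgcs1 (7.58e-05) and 5.31 for Fdft1 (8.8e-05). The 5 enzymes not called were Nsdhl, with a log2 difference of 0.94 ± 0.33 (SE), Acat2 (0.47 ± 0.26), Sc5d (0.03 ± 0.36), Tm7sf2 (−0.19 ± 0.34) and Ebp (−0.41 ± 0.22). With slide as a block as well, 12 enzymes were called higher and 0 members lower, against 3.32% and 3.39% of items. Within slide 4, β-catΔEx3 replicate 3 was above WT replicate 4 for 16 of 18 enzymes and at least 2-fold above it for 12, where 13.5% of items were. These refits choose which array to leave out from its values, so they describe what the other livers hold and do not replace the comparison of all 3.

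Between β-catΔEx3:Myc and β-catΔEx3 livers no member passed the test in the limma fit of all arrays, where 0.108% of items were called higher and 0.144% lower (0.251% in all). Abca1 had a log2 difference of −0.46 (95% interval −0.83 to −0.10) and did not pass (limma adjusted p = 0.334). It was the 1 member of 27 whose arrays did not overlap between these groups, on the lower side. Of all items 4.19% did so on the lower side and 3.9% on the higher side, so this count is near that of the array as a whole. The intervals were wide for the enzymes: for Hmgcs1 it ran from −1.80 to 1.65 and for Idi1 from −2.23 to 1.81. Differences up to these bounds, in either direction, thus remain possible with these arrays. Without β-catΔEx3 replicate 1, 9 enzymes were lower in β-catΔEx3:Myc (Hmgcs1, Pmvk, Idi1, Fdps, Fdft1, Sqle, Lss, Cyp51 and Msmo1), against 0.332% of items, and 0 members were higher, against 0.189%. The log2 difference was −1.75 ± 0.22 for Idi1 (limma adjusted p = 0.0174) and −1.63 ± 0.22 for Cyp51 (0.0194) in that fit. With slide as a block as well, Idi1, Fdps, Lss and Nsdhl were called lower, against 0.135% of items. Both fits keep 2 β-catΔEx3 livers and leave out an array chosen by its values, so they do not replace the comparison of all 3. Without replicate 2 or 3 instead, 15 or 13 of the 18 enzymes were positive. In those fits 0 members were called, where 0.242% and 0.0449% of items were. Within slide 4, β-catΔEx3:Myc replicate 4 was below β-catΔEx3 replicate 3 for 17 of 18 enzymes; within slide 2, the β-catΔEx3:Myc mean was below β-catΔEx3 replicate 2 and above replicate 1 for all 18.

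**Figure D4:**
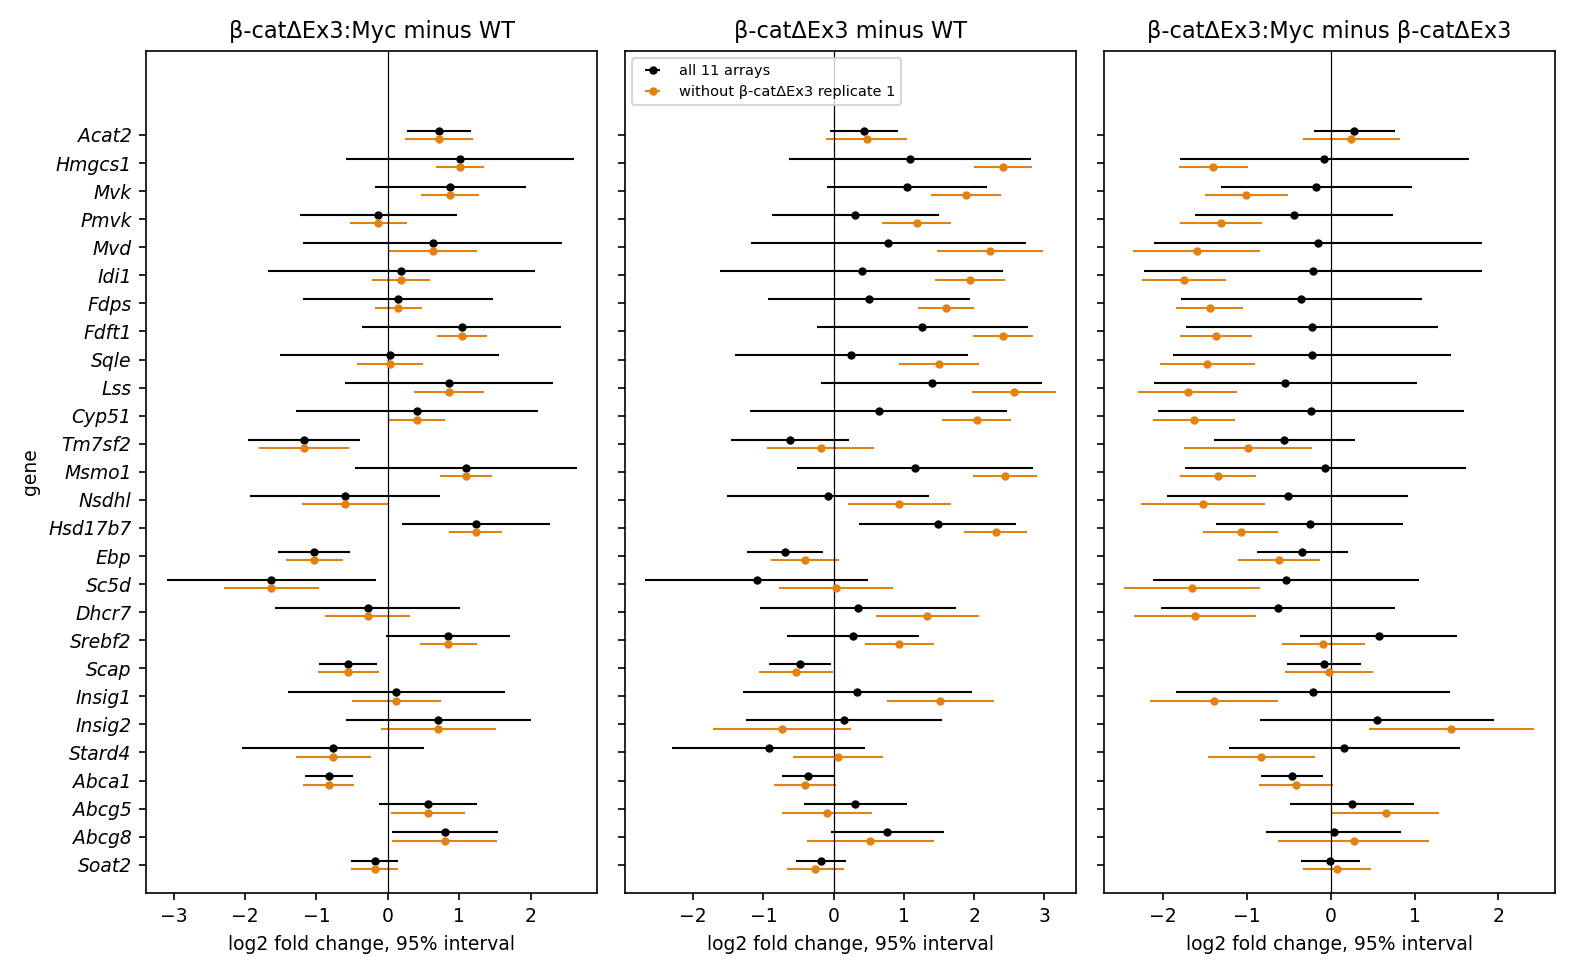
Log2 fold change of each member with its 95% interval in the 3 comparisons, from the fit of all 11 arrays (black) and without β-catΔEx3 replicate 1 (orange). The intervals of most enzymes narrow without that array, and Hmgcs1 in β-catΔEx3 minus WT goes from an interval of −0.64 to 2.82 to one of 2.002 to 2.83.

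Other genes of sterol handling, from a list of 35, had few wide gaps between the β-catΔEx3 livers: of 33 tested, 0 were at least 4-fold lower on replicate 1 than on the mean of replicates 2 and 3, against 1.19% of items, and 1, Lbr, named after its values were seen, was at least 2-fold lower. In the test of groups 8 of the 33 were higher and 3 lower in β-catΔEx3:Myc than in WT livers, and 6 were higher and 3 lower in β-catΔEx3 than in WT livers, where 25.3%, 17.1%, 21.6% and 15.5% of items were. Npc1, which lets cholesterol out of lysosomes, had 3.21, 3.34, 3.69 and 2.62 in β-catΔEx3:Myc, 3.19, 2.67 and 3.15 in β-catΔEx3 and 1.73, 1.48, 1.998 and 1.99 in WT livers. Tmem97, a sterol-responsive membrane protein known to bind Npc1, was higher by 1.21 ± 0.17 in β-catΔEx3:Myc (limma adjusted p = 0.00044) and by 1.26 ± 0.19 in β-catΔEx3 (0.000755) than in WT livers. Mbtps2, the protease that makes the last cut freeing Srebf2, was higher by 1.11 ± 0.19 in β-catΔEx3:Myc and by 1.22 ± 0.21 in β-catΔEx3 (limma adjusted p = 0.00121 and 0.00144). For all 3 genes, named for their large changes, the mutant arrays lay above the WT arrays without overlap. Of the 33 genes, 6 did so in β-catΔEx3:Myc and 9 in β-catΔEx3, where 24.9% and 24.8% of items did. Gramd1c, of a family of sterol transfer proteins, was lower than in WT livers, with log2 differences of −1.87 ± 0.27 in β-catΔEx3:Myc and −1.54 ± 0.29 in β-catΔEx3. Mylip, a ligase that lowers lipoprotein receptors, was lower with differences of −1.35 ± 0.26 in β-catΔEx3:Myc and −0.95 ± 0.28 in β-catΔEx3. Cyp46a1, a hydroxylase known from brain, was lower in β-catΔEx3:Myc (−1.17 ± 0.38, limma adjusted p = 0.029), and Mbtps1, which makes the first cut, in β-catΔEx3 (−0.60 ± 0.17, 0.022). With slide as a block 0 of the 33 were called in any comparison. That fit called 8.74% of items in β-catΔEx3:Myc against WT, 8.13% in β-catΔEx3 against WT and 0.799% between the mutants.

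Fatty acid synthesis genes, which answer mainly to the related factor Srebf1, were low on the same β-catΔEx3 array without the enzymes' high levels on the other 2. Their mean as a log2 difference from WT was −2.94, −2.98, −3.26 and −2.63 on the β-catΔEx3:Myc arrays, −3.43, −0.70 and −1.82 on β-catΔEx3 replicates 1, 2 and 3, and −0.09, 0.27, 0.38 and −0.56 on the WT arrays. Of 12 genes, 10 were lower in β-catΔEx3:Myc and 4 in β-catΔEx3 than in WT livers, where 17.1% and 15.5% of items were lower, and 0 were higher. With slide as a block 1 was called lower in β-catΔEx3:Myc (4.45% of items) and 2 in β-catΔEx3 (3.98%).

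Markers of other cells are given beside these values. Neutrophil markers summed to between 3.99 and 73.0 in β-catΔEx3:Myc, 0.897 and 3.92 in β-catΔEx3 and 5.44 and 10.1 in WT livers, in multiples of the array's 75th percentile, and their lowest array was β-catΔEx3 replicate 1, where 3 of the 5 were well above background. Of these 5 markers, 1 was called higher in β-catΔEx3:Myc and 0 in β-catΔEx3 against WT, where 25.3% and 21.6% of items were. The 5 macrophage markers tested summed to between 12.1 and 37.2 in β-catΔEx3:Myc, 13.5 and 33.3 in β-catΔEx3 and 148 and 220 in WT livers, and all 5 were called lower in both mutants, where 17.1% of items were in β-catΔEx3:Myc and 15.5% in β-catΔEx3. None of the 5 was called in either comparison with slide as a block (0 of 5), where 4.45% of items were lower in β-catΔEx3:Myc and 3.98% in β-catΔEx3. Hepatocyte markers had a mean log2 difference from WT of −0.47 on β-catΔEx3 replicate 1, with 5 of 8 below all WT arrays, and of −0.60 and −0.83 on replicates 2 and 3, with 6 of 8 below on each. Clock output genes, 10 of 12 tested, had a mean difference from WT of −0.06 on replicate 1 and of −0.35 and 0.26 on the other 2, and ranged from −0.71 to 0.51 over the WT arrays. The part of these other cells in the members' values was not tested.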

How the data were processed

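RNA of 11 mouse livers was measured on 1 array each. Per the file headers, the authors extracted signals with Agilent Feature Extraction 10.7.1.1, and the deposited intensity of each spot is its background-subtracted processed signal, not normalized between arrays. The deposited log2 matrix is described as quantile normalized processed signal. It ranks probes as the processed signals do and has a median of 4.51 on every array. It served as an alternative, but it and the quantile normalization run here are of the same kind and not separate checks.

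Here, outlier spots were dropped, the spots of a probe were averaged on the log2 scale, and the 75th percentile of each array's log2 processed signal was subtracted. Only probes that stood well above background on 3 or more arrays were used, accessions were matched to RefSeq symbols, and the probe with the highest mean stood for a gene. Files name the mm9 build, so no probe position was taken from tables of GRCm38.p6. Groups were compared with limma 3.58.1 (R 4.3.3) as 3 group means over 11 arrays, with 8 residual and 2.51 prior degrees of freedom, 2-sided tests and Benjamini-Hochberg adjustment over all 22281 items at 0.05. The fit was tested on simulated data, in which a gene had the same spread in every group and slides had no effect. That setting differs from these enzymes, whose spread was wider in β-catΔEx3 than in the other groups. Intervals are 95% intervals of the fit, and the number of arrays limits the precision. P-values set a difference between groups against the spread of arrays within genotypes. That spread is a single estimate per gene over all 3 genotypes, drawn towards that of the other genes.

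The members and all lists were chosen with earlier results of these data known. All 27 members are named; of the list of other sterol genes, up to 3 called genes of each direction with the largest change are named. Alternatives were other scalings, background correction (normexp, offset 50, on the median signal), the authors' matrix, other filters, the mean of a gene's probes, slide as a block, the 2 compared groups alone, limma with a trend, and leaving out each array. Slide as a block without β-catΔEx3 replicate 1 was added after the data were seen. Some genes of the pathway are not reported here.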

Additional observations from a re-analysis of the deposited data

Results flagged for a closer look

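A sample far from the others of its genotype was looked for in the groups of 4 arrays, for 27 members in 2 genotypes, with Dixon's ratio of gap to range at its 95% critical value. Of 54 tests 5 passed, and chance passes about 1 in 20. Mvd was at 2.77 in β-catΔEx3:Myc replicate 3, against 3.504 to 3.61 in the others of its group. Sc5d was at 4.31 in the same replicate, against 5.58 to 5.66. Tm7sf2 was at 6.65 in WT replicate 4, against 7.22 to 7.29. Srebf2 was at −0.33 in WT replicate 4, against −0.50 to −0.47. Soat2 was at 4.96 in WT replicate 1, against 4.51 to 4.56. The β-catΔEx3 group, with 3 arrays, was not tested in this way.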

How the results depend on the processing

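No paired analysis was possible because each mouse has its own number and no number is shared between genotypes. For β-catΔEx3 against WT, 2 members were called; the count was 1 with median scaling, 0 without a filter on dim probes, 0 with slide as a block, 0 in the fit of the 2 groups alone, 12 with slide as a block and without β-catΔEx3 replicate 1, and 0 to 15 when 1 array was left out. The 15 came without β-catΔEx3 replicate 1; leaving out any WT or β-catΔEx3:Myc array or β-catΔEx3 replicate 3 gave 0 or 1. For β-catΔEx3:Myc against WT, 5 were called; the count was 0 with slide as a block, 14 in the fit of the 2 groups alone, and 3 to 14 when 1 array was left out (3 without WT replicate 1 or 2, 14 without β-catΔEx3 replicate 1). For β-catΔEx3:Myc against β-catΔEx3, 0 were called; the count was 4 with slide as a block and without β-catΔEx3 replicate 1, and 0 to 9 when 1 array was left out (9 without β-catΔEx3 replicate 1). No member called in the fit of all arrays changed sign under any alternative run. For the enzymes as a set, signs depended on which β-catΔEx3 array was left out. In β-catΔEx3:Myc against β-catΔEx3, 1 of 18 enzymes was positive with all arrays and also without replicate 1. The number was 15 without replicate 2 and 13 without replicate 3 (median log2 differences of 0.27 and 0.14). In β-catΔEx3 against WT, 14 were positive with all arrays, and 16, 7 and 10 without replicates 1, 2 and 3. The median of all items in β-catΔEx3 against WT was 0.10 here and −0.08 with the percentile taken over probes detected on all arrays, and in β-catΔEx3:Myc against β-catΔEx3 it was 0.01 here and −0.12 with median scaling. With both Srebf2 probes averaged, Srebf2 was called higher in both mutants against WT (log2 differences of 0.85 in β-catΔEx3:Myc and 0.90 in β-catΔEx3). Slide and genotype overlap only on slides 2 and 4, so 1 WT array carries the comparison with WT once slide is fitted.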
